A study of Bos taurus with 8 samples.

Results

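The peripheral myelin protein PMP22 and the epithelial membrane proteins EMP1, EMP2 and EMP3 are small tetraspan proteins of the claudin superfamily. PMP22 was cloned as a growth arrest-specific gene of fibroblasts and is best known from the myelin sheath of peripheral nerves, but it is also made in epithelia and connective tissue. EMP2 binds integrins and focal adhesion kinase and is known from the endometrium and the lung, while EMP1 and EMP3 were found by their likeness to PMP22. The genes were taken by their symbol in the annotation of a bovine array, which gave 1 probe each for PMP22, EMP2 and EMP3, or 3 of 4 genes among 15216 symbols. No probe carried the symbol EMP1 in that annotation, and EMP1 was not analysed here. PMP22 was chosen by its measured log2 ratio between plateau and growing follicles, and the other genes by their kinship with it, so the ratios between the stages are given below as a description, without a test.

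The samples were mural granulosa cells that had been scraped from single dominant follicles above 9 mm, in ovaries of Holstein cattle from a slaughterhouse, whose reproductive status was not known. Stage had been set by the ranking of follicles on the DNA content of their cells in flow cytometry, where growing follicles ranked highest for cells of whole over fragmented DNA content and plateau follicles came between them and atretic ones. RNA of 4 growing (G) and 4 plateau (P) follicles was amplified and hybridized to EmbryoGENE arrays of 43794 probes, 1 growing against 1 plateau follicle per array, and each of the 4 pairs was read again on the second slide with Cy3 and Cy5 exchanged. Follicles are numbered by pair, levels are normalized log2 intensities averaged over both dyes of a follicle, and log2 ratios are positive where plateau was higher.

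The follicles of a stage were far from alike in the markers of granulosa cells. The summed level of 10 granulosa markers was 16.1, 17.0, 18.0 and 17.5 in growing follicles 1 to 4 and 18.1, 15.8, 13.8 and 18.0 in plateau follicles 1 to 4, lowest in plateau follicles 3 and 2. The brightest genes weigh most in this sum. Of these, INHA and INHBA had 8 and 7 of 16 readings saturated, so the higher sums are capped. CYP19A1, the aromatase that makes oestradiol and a gene chosen here after its values were seen, had 11.9, 8.15, 15.8 and 14.8 in growing and 15.4, 8.06, 8.80 and 15.8 in plateau follicles. It was thus near the level of the negative spots, of which the upper limit was 7.74 to 8.03 over arrays and dyes, in growing follicle 2 and plateau follicles 2 and 3. The ratios of the members and of the lists are also given over pairs 1 and 4 alone, without plateau follicles 2 and 3. This split was made after the data were seen, and these 2 follicles also had the highest PMP22 levels. A smaller PMP22 ratio over pairs 1 and 4 was therefore fixed in advance and tests nothing.

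PMP22 transcript was abundant in 2 of the 8 follicles, both of the plateau stage, and low in the other 6. Its level was 7.87, 8.15, 8.70 and 8.10 in growing follicles 1 to 4, and 8.34, 10.5, 11.8 and 8.52 in plateau follicles 1 to 4. The spot was above the negative spots in 6 of 8 growing readings, the exceptions being the Cy5 readings of growing follicles 1 and 4, and in 8 of 8 plateau readings. Before any normalization the probe read 3786 in Cy3 and 3312 in Cy5 in plateau follicle 3 and 1517 and 1448 in plateau follicle 2, whereas the growing follicles gave 350 to 516 in Cy3 and 210 to 360 in Cy5. The stages overlapped, since growing follicle 3 lay above plateau follicles 4 and 1. The order from the highest was P3, P2, G3, P4, P1, G2, G4 and G1, and the Cy3 and Cy5 values of neighbours overlapped only for P4 with P1 and for G2 with G4.

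**Figure D1:**
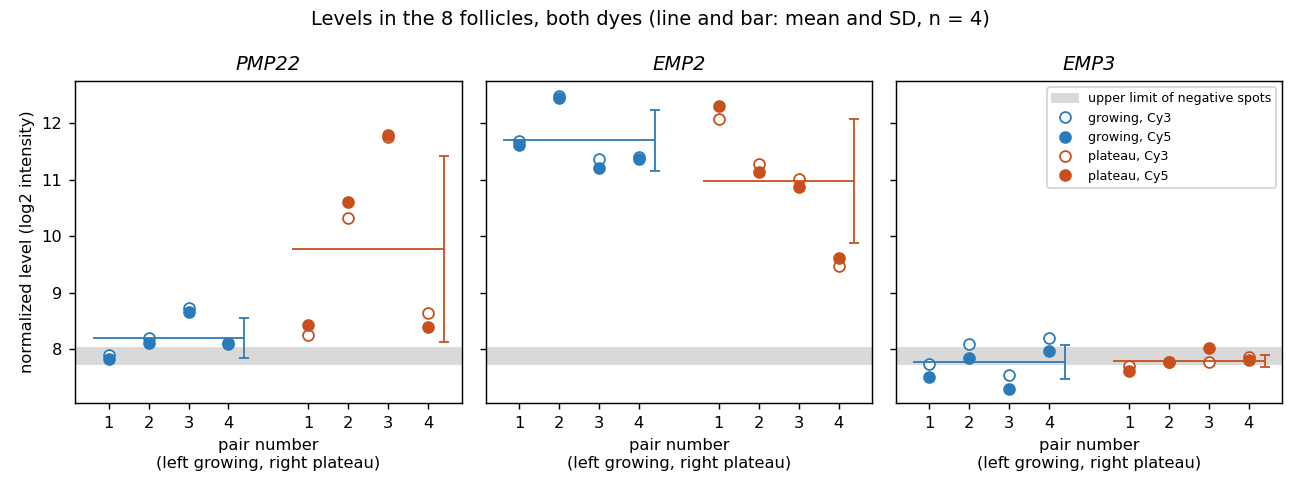
Normalized log2 intensity of the PMP22, EMP2 and EMP3 probes (y axis) in the growing (blue) and plateau (red) follicles of pairs 1 to 4 (x axis), open circles for Cy3 and filled circles for Cy5, with the mean and SD of each stage (n = 4) and the limit of the negative spots in grey. PMP22 reached 10.5 and 11.8 in plateau follicles 2 and 3 and lay at 8.70 or below in the other 6 follicles, EMP2 was lowest in plateau follicle 4, and EMP3 stayed close to the grey band.

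Within pairs the PMP22 ratio was above 0 every time, but by very different amounts. The log2 ratios of pairs 1 to 4 were 0.47, 2.33, 3.08 and 0.42. Pairs 2 and 3 thus had fold changes of 5.01 and 8.46, whereas the smaller ratios of pairs 1 and 4 rest on growing readings that were above the negative spots in Cy3 only. Their mean was 1.57 ± 1.34 (SD, n = 4 pairs), a fold change of 2.98, on stage means of 8.20 ± 0.35 (SD, n = 4) in growing and 9.78 ± 1.65 (SD, n = 4) in plateau follicles. Pairs 2 and 3 gave a mean of 2.70, and pairs 1 and 4, without the 2 plateau follicles of high level, gave 0.45. The dyes made little difference: the slides gave means of 1.57 and 1.58, and the arrays of a pair lay 0.01 to 0.13 from their mean. The deposited ratio table had 0.46, 2.42, 3.12 and 0.46 for the same pairs, with a mean of 1.62 ± 1.36 (SD, n = 4).

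The study's cut-off for a differentially expressed gene was a fold change beyond 1.5 either way, an unadjusted p-value below 0.05 and a minimal intensity of 7, which was applied here to the mean log2 intensity. It was met by 1 of the 3 probes, that of PMP22, which had been chosen on the same ratio, so that this count is a description and no test. Over the array it was met by 297 of 43794 probes (0.678%), higher in plateau for 0.299% and lower for 0.379% of all probes. A ratio above 0 in all 4 pairs, as for PMP22, was found for 4.79% of all probes. PMP22 no longer met the cut-off without pair 2 or without pair 3, where the mean fell to 1.32 and 1.07. Nothing passed limma's test at an adjusted p of 0.05, whereas 1152 probes (2.63%) had an unadjusted p under 0.05. Named probes more than 1.5-fold higher in plateau were also ranked by how near their unadjusted p lay to 0.05. The nearest inside the cut-off was ALOX5, with a log2 ratio of 0.76, and the nearest outside was HSPH1, with 0.61. The sum of the PMP22 variances within the 2 stages was above that of 98.3% of all probes. Most of it came from the plateau follicles, with an SD of 1.65 against 0.35 in growing follicles.

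EMP2 was well above the negative spots in all 16 readings, and its levels ran the other way on average. In growing follicles 1 to 4 the level was 11.7, 12.5, 11.3 and 11.4, and in plateau follicles 1 to 4 it was 12.2, 11.2, 11.0 and 9.54. The highest follicle was growing follicle 2 and the lowest plateau follicle 4, with the others within 11.0 to 12.2, so that the stages overlapped here too. The order was G2, P1, G1, G4, G3, P2, P3 and P4, in which the Cy3 and Cy5 values of G4 and G3, and of G3 and P2, overlapped. The log2 ratio was 0.54 in pair 1 and -1.26, -0.34 and -1.84 in pairs 2, 3 and 4. EMP2 was thus lower in the plateau follicle in 3 of 4 pairs, by 1.65-fold in the mean of all pairs (-0.73 ± 1.05, SD, n = 4 pairs), on stage means of 11.7 ± 0.54 and 11.0 ± 1.10 (SD, n = 4). The mean was -1.15 without pair 1 and -0.35 without pair 4, and in pairs 1 and 4 alone it was -0.65. Without pair 1, EMP2 met the cut-off, as did 1538 of all probes.

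EMP3 lay at the edge of detection, with 5 of 8 readings of each stage above the negative spots. Its level was 7.63, 7.97, 7.43 and 8.09 in growing follicles and 7.66, 7.77, 7.90 and 7.84 in plateau follicles. The log2 ratios of pairs 1 to 4 were 0.03, -0.20, 0.47 and -0.25, with a mean of 0.02 ± 0.33 (SD, n = 4 pairs). In 2 pairs the plateau follicle was higher and in 2 it was lower, and the mean was smaller than the spread.

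**Figure D2:**
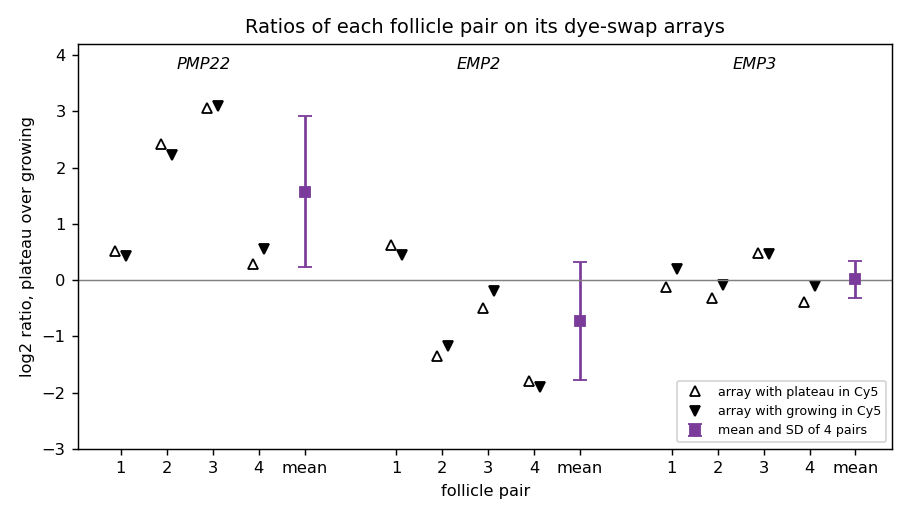
Log2 ratio of plateau over growing (y axis) for PMP22, EMP2 and EMP3 in follicle pairs 1 to 4 (x axis), with an open triangle for the array with plateau in Cy5, a filled triangle for the array with growing in Cy5, and a square with a bar for the mean and SD of the 4 pairs. The triangles of a pair lie close together, whereas the pairs of PMP22 run from 0.42 to 3.08 and those of EMP2 from -1.84 to 0.54.

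Whether the members varied together among follicles was tested on the levels of the 8 follicles, with exact permutation tests, two-sided, adjusted over 3 gene pairs. These levels contain the stage difference on which PMP22 was chosen, and the permutations kept neither stage nor pair apart. The tests with PMP22 are thus not free of that choice. The 2 follicles of an array share its spots, and nothing in the labels says whether follicles came from separate animals. PMP22 and EMP2 had Pearson's r = -0.27 (exact p = 0.487, adjusted p = 0.922) and Spearman's rho = -0.67 (exact p = 0.0831, adjusted p = 0.249). Without plateau follicles 2 and 3, which lie farthest from the median of PMP22, r was -0.44 (exact p = 0.408). EMP2 was thus at 11.2 and 11.0 in the follicles where PMP22 was highest, and no relation passed the test. PMP22 and EMP3 had r = 0.10 (exact p = 0.798, adjusted p = 0.922) and rho = -0.10 (exact p = 0.840, adjusted p = 1), and r = -0.43 (exact p = 0.390) without the same follicles. Within the 4 growing follicles r was -0.51 and within the 4 plateau follicles 0.66, given as values with no test. For EMP2 and EMP3, r was -0.04 (exact p = 0.922, adjusted p = 0.922) and rho 0 (exact p = 1, adjusted p = 1), and r was -0.29 (exact p = 0.594) without growing follicle 2 and plateau follicle 4. Within the stages r was 0.41 in growing and -0.70 in plateau follicles for this pair of genes, and -0.34 and 0.03 for PMP22 and EMP2.

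**Figure D3:**
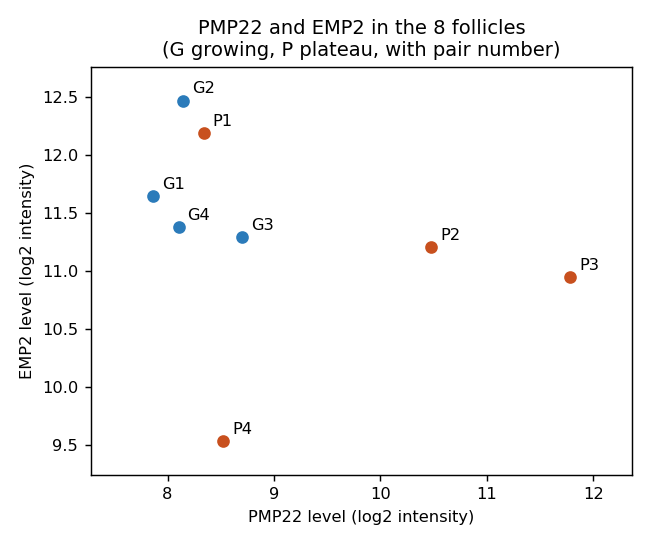
Log2 level of EMP2 (y axis) against that of PMP22 (x axis) in the 4 growing (blue, G) and 4 plateau (red, P) follicles, each labelled with its pair number. Plateau follicles 2 and 3 lie to the right at EMP2 levels of 11.2 and 11.0, and plateau follicle 4, with the lowest EMP2 level of 9.54, had a PMP22 level of 8.52.

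The plateau follicles with high PMP22 also differed from the rest in markers of other cells, and their part in the PMP22 level was not tested. In bulk samples of this kind, fewer cells of a type and less RNA per cell cannot be told apart. AMH, the anti-Müllerian hormone of granulosa cells, was 9.99, 11.6, 12.4 and 12.4 in growing and 12.6, 7.98, 8.06 and 13.6 in plateau follicles. Follistatin (FST), which binds activin, had 11.9, 12.05, 14.5 and 13.9 against 15.1, 9.79, 9.33 and 14.7. Both were lowest in plateau follicles 2 and 3, as was the inhibin subunit INHA, with 12.8 and 11.4 there and 14.1 or more in the others, where 8 of its 16 readings were saturated. Only these 3 of the 10 granulosa markers had plateau follicles 2 and 3 as the 2 lowest. FSHR and NR5A2, chosen after their values were seen, differed. FSHR was lowest in growing follicle 2, at 8.43, and NR5A2 had 13.3 in plateau follicle 2 against 12.1 in growing follicle 3. INHBA, the activin subunit, was lowest in plateau follicle 3, at 11.5, but had 15.2 in plateau follicle 2, with 7 of its 16 readings saturated. Growing follicle 2, where CYP19A1 was as low as in plateau follicle 2, had AMH at 11.6 and had PMP22 at 8.15. Of the 10 granulosa markers, 9 had a mean ratio below 0 and 1 above, 0 met the cut-off, and the median was -0.64, against a median of 0.00 over all 15216 genes. This direction came from pairs 2 and 3, where the median was -2.64. Over pairs 1 and 4 alone it turned, with 9 markers above 0, 1 below and a median of 0.96, and AMH had 1.93 and FST 2.03 there against -3.99 and -3.72 in pairs 2 and 3.

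Of 10 leukocyte markers, 5 had their 2 highest levels in plateau follicles 2 and 3, like PMP22. Among 5831 genes of mean log2 intensity of at least 9 this held for 3.31%. The markers were dimmer than those genes, and the share among genes of their own level was not counted. CD68, a lysosomal protein of macrophages, was 8.58, 8.36, 8.11 and 8.12 in growing and 8.04, 10.5, 10.2 and 8.27 in plateau follicles. The scavenger receptor CD163 had 8.08, 8.51, 7.84 and 7.81 against 7.99, 9.69, 8.99 and 8.12. The other 3 were CD3E, LYZ and AIF1, and the summed level of the list was 12.2 and 12.1 there and 11.1 to 11.3 in the other 6 follicles. Over the list 9 ratios were above 0 and 1 below, with a median of 0.33, and 1 gene met the cut-off, the lysozyme LYZ (0.61 ± 0.42, SD, n = 4 pairs, above the negative spots in 6 of 16 readings). The pan-leukocyte marker PTPRC, chosen after its values were seen, did not share this profile, with 8.39 and 8.44 in plateau follicles 2 and 3 and 8.49 in growing follicle 1. ITGAM and CSF1R, which mark myeloid cells, were highest in growing follicle 3 and above the negative spots in at most 4 of 16 readings. Over pairs 1 and 4 alone 6 ratios were above 0 and 4 below, with a median of 0.03, and CD68 had -0.20 and CD163 0.11.

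Of 12 markers of fibroblasts and smooth muscle, 10 were highest in plateau follicle 3. The share of all genes that were highest in this follicle was not counted. The calponin CNN1, a smooth muscle protein with the largest mean ratio of the list, was 8.52, 10.9, 9.45 and 8.49 in growing and 7.76, 11.6, 15.3 and 10.6 in plateau follicles, and was the 1 marker whose 2 highest follicles were those of PMP22. PDGFRA, a receptor of fibroblasts, was 9.61, 11.3, 9.33 and 8.32 in growing and 8.29, 10.8, 14.9 and 8.84 in plateau follicles. The collagen gene COL1A2 had 8.46, 11.4, 9.76 and 8.91 against 8.40, 9.27, 15.9 and 10.1, and COL3A1 was likewise highest in plateau follicle 3, at 14.5. MYH11, the myosin of smooth muscle and a gene chosen after its values were seen, was at 11.9 in plateau follicle 2, close to its highest level in growing follicle 1, but lowest in plateau follicle 3, at 7.26. The summed level of the 12 markers was 17.9 in plateau follicle 3, 14.5 in plateau follicle 2 and 13.2 to 14.5 in the other follicles. Plateau follicle 3 stood alone in this sum, while plateau follicle 2 was close to growing follicle 2, in which PMP22 was low. In the list 11 ratios were above 0 and 1 below, 0 met the cut-off, and the median was 0.28. Over pairs 1 and 4 alone 5 were above 0 and 7 below, with a median of -0.06.

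Markers of the Schwann cell, in which PMP22 is a myelin protein, were mixed. Of 14 such markers 11 were measured, and 0 of them had their 2 highest levels in plateau follicles 2 and 3. On average over pairs, the ratios were above 0 for 7 and below 0 for 4, with a median of 0.03 and 0 at the cut-off, and over pairs 1 and 4 alone also 7 and 4, with a median of 0.06. The myelin genes MAG and MAL and the lineage factor SOX10 were above the negative spots in at most 4 of 16 readings. S100B and CNP, which other cells also express, were highest in growing follicle 2, at 12.7 and 15.8. The nerve growth factor receptor NGFR was highest in plateau follicle 3, at 9.80, against 8.67 to 9.02 in the others. The summed level of the list, to which CNP gave the most, was 14.1 and 14.3 in plateau follicles 2 and 3 and 13.7 to 16.1 in the other follicles, while the median level of the list was highest in plateau follicle 3, at 8.08, and was 7.74 in plateau follicle 2 and 7.80 to 7.97 in the others.

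**Figure D4:**
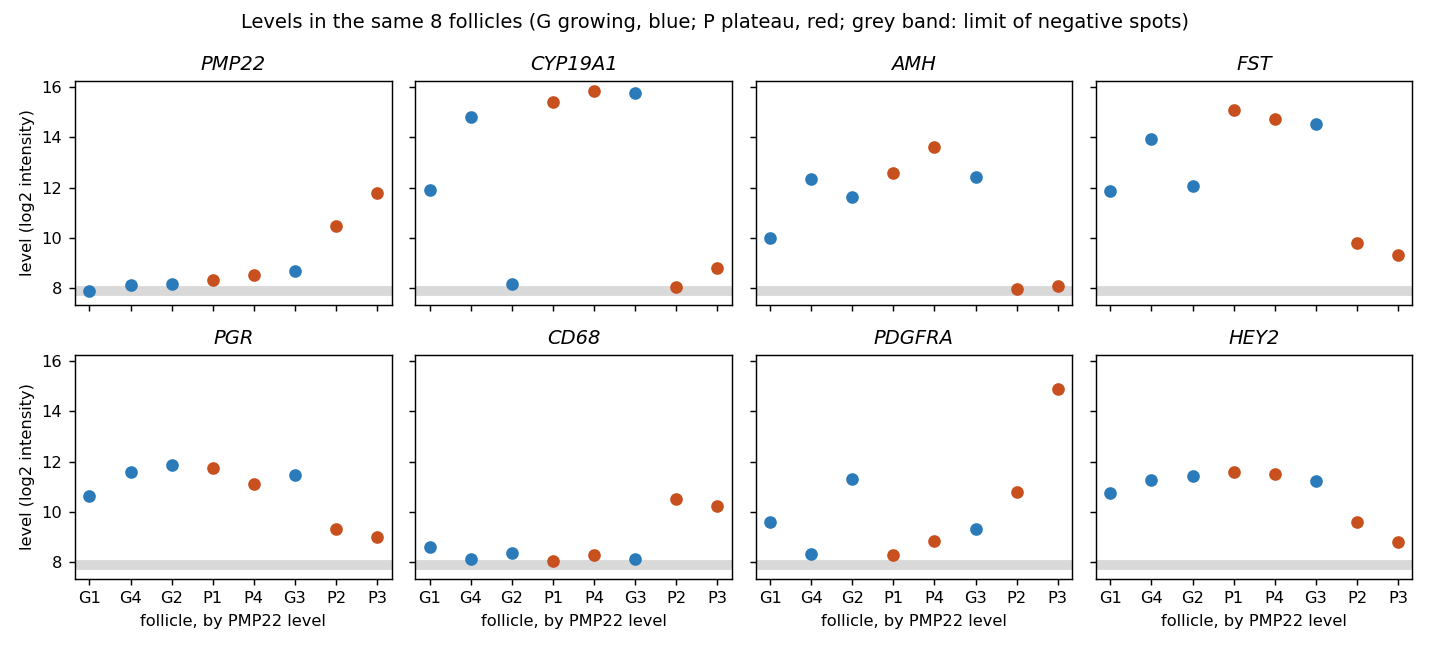
Log2 levels (y axis) of PMP22 and 7 other genes in the growing (blue, G) and plateau (red, P) follicles, ordered on the x axis by their PMP22 level, with the limit of the negative spots in grey. In plateau follicles 2 and 3, at the right, AMH lay at 7.98 and 8.06, CD68 at 10.5 and 10.2, and PGR and HEY2 below their levels in the other 6 follicles.

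Genes of like profile were sought among 5831 genes that averaged at least 9 in log2 intensity and lay above the negative spots in every reading. Those most like PMP22 over the 8 follicles were LOC100141258 (Pearson's r = 0.97), STX12 (0.96), a syntaxin of endosomes, NCBP1 (0.95), a subunit of the nuclear cap-binding complex, ORAI2 (0.94), a calcium channel subunit, and GALM (0.94), a galactose mutarotase. STX12 was 10.6, 10.5, 10.5 and 10.6 in growing and 10.5, 11.2, 11.6 and 10.7 in plateau follicles. ORAI2 had 8.90, 8.71, 8.91 and 8.42 against 8.24, 10.4, 11.0 and 8.34. These profiles share with PMP22 the high plateau follicles 2 and 3, which were the 2 highest follicles for 193 of the 5831 genes (3.31%). The most opposite were PLEKHJ1 (-0.97), the short-chain dehydrogenase DHRS12 (-0.93) and HEY2 (-0.93), a transcriptional repressor of the Notch pathway. HEY2 was 10.8, 11.4, 11.2 and 11.3 in growing and 11.6, 9.59, 8.82 and 11.5 in plateau follicles, lowest where PMP22 was highest. Such a profile, with plateau follicles 2 and 3 as the 2 lowest, was found for 376 of the 5831 genes (6.45%). Without plateau follicles 2 and 3 the likeness was largely gone, with r = 0.72 for NCBP1, 0.24 for GALM, 0.20 for LOC100141258 and -0.14 for ORAI2, and of the 22 genes with r of at least 0.9 only 1 kept such an r.

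The genes most like EMP2 were DHRS1 (r = 0.95), TMBIM4 (0.94), a Golgi protein of the BAX inhibitor motif family, CNPY2 (0.94), SNRPN (0.93), a spliceosomal protein, and the ubiquitin hydrolase UCHL1 (0.90). TMBIM4 was 12.7, 13.5, 12.8 and 12.9 in growing and 13.2, 12.5, 12.6 and 12.04 in plateau follicles, highest in growing follicle 2 and lowest in plateau follicle 4 like EMP2. MDP1 (-0.95), LOC100174924 (-0.94) and VPS8 (-0.93), a subunit of an endosomal tethering complex, were the most opposite. Without these 2 follicles, the ends of the EMP2 range, r was 0.97 for SNRPN, 0.88 for CNPY2, 0.84 for TMBIM4, 0.80 for DHRS1 and 0.54 for UCHL1. The genes nearest to the dim EMP3 probe were MSL3 (0.91), SARNP (0.90), FLRT2 (0.88), TPM4 (0.87) and CLUL1 (0.84), and RINT1 (-0.88), SLITRK2 (-0.88) and SMAD6 (-0.85) were the most opposite.

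Other relatives in the claudin superfamily lay on both sides of 0. Of 20 genes listed 16 were measured, 10 with a ratio above 0 and 6 below, 0 at the cut-off and a median of 0.02, and over pairs 1 and 4 alone 9 and 7, with a median of 0.05. TMEM47, a junction protein, was 11.7, 11.2, 11.0 and 11.3 in growing and 11.7, 10.7, 9.87 and 11.0 in plateau follicles, and its ratios averaged -0.49 ± 0.51 (SD, n = 4 pairs). It was lowest in plateau follicles 3 and 2, where PMP22 was highest, and averaged -0.13 over pairs 1 and 4. PERP, a desmosome protein and p53 target, had 0.25 ± 0.70 (SD, n = 4) and was highest in plateau follicle 3, at 12.3, but had 10.3 in plateau follicle 2. GSG1L, a partner of glutamate receptors, had -0.18 ± 1.74 (SD, n = 4) and turned to 0.93 over pairs 1 and 4, and GSG1 had 0.24 ± 0.24 (SD, n = 4) on a probe above the negative spots in 4 of 16 readings.

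Genes of the proteins that bind PMP22 or the EMPs, among them integrins, caveolins and focal adhesion kinase, lay about evenly above and below 0. Of 16 listed 15 were measured, with 7 ratios above 0 and 8 below, 0 at the cut-off and a median of -0.02. Over pairs 1 and 4 alone 11 were above 0 and 4 below, with a median of 0.11. Caveolin CAV1 was lower in the plateau follicle in all 4 pairs (-0.41 ± 0.71, SD, n = 4), at 9.47 in growing follicle 2 and 7.59 to 7.99 in the other 7 follicles. Those 7 lay near the limit of the negative spots, with 6 of 8 growing and 5 of 8 plateau readings of the probe above it. The integrin subunits ITGAV (0.39 ± 1.01), ITGB1 (0.32 ± 0.55) and ITGA6 (-0.33 ± 1.18, each SD, n = 4) varied more among pairs than their means, and over pairs 1 and 4 ITGAV turned to -0.21 and ITGA6 to 0.56. ITGAV, a subunit of the integrin that EMP2 regulates, was highest in plateau follicle 3, at 9.99, against 7.94 to 8.95 in the others.

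Of the other growth arrest-specific genes only GAS8 was above the negative spots in all 16 readings. Of 9 listed 8 were measured, with 3 ratios above 0 and 5 below, 0 at the cut-off and a median of -0.01, and over pairs 1 and 4 alone 4 and 4, with a median of 0.05. GAS8, which acts in cilia, had 0.51 ± 0.69 (SD, n = 4), with 11.7 in plateau follicle 2 and 11.8 in plateau follicle 4 but 10.6 in plateau follicle 3. GAS7 had -0.11 ± 0.89 (SD, n = 4), and GAS6, a ligand of TAM receptors, 0.14 ± 0.06 (SD, n = 4) with 4 of 16 readings above the negative spots. GAS2L2 had -0.05 ± 0.11 (SD, n = 4) and was also dim.

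Of 12 genes known to regulate PMP22, mostly from Schwann cells of rodents, 9 were measured, with 4 ratios above 0 and 5 below, 0 at the cut-off and a median of 0.00. Over pairs 1 and 4 alone 2 were above 0 and 7 below, with a median of -0.16. EGR2, YAP1 and ERBB2 had no probe with their symbol and are not covered by these counts. The progesterone receptor PGR was 10.6, 11.9, 11.5 and 11.6 in growing and 11.7, 9.31, 8.99 and 11.1 in plateau follicles, and its ratios averaged -1.10 ± 1.76 (SD, n = 4 pairs). Its level was lowest in plateau follicles 2 and 3, and over pairs 1 and 4 the mean turned to 0.33, against -2.52 in pairs 2 and 3. The glucocorticoid receptor NR3C1 was 12.5, 11.7, 11.1 and 11.4 in growing and 11.2, 12.7, 12.5 and 12.1 in plateau follicles, and its ratios averaged 0.48 ± 1.19 (SD, n = 4). Its 2 highest levels were in plateau follicles 2 and 3, followed closely by growing follicle 1, where PMP22 was at its lowest, and over pairs 1 and 4 the mean turned to -0.27. The neuregulin receptor ERBB3 had -0.37 ± 0.72 (SD, n = 4) and the dim SOX10 -0.23 ± 0.13 (SD, n = 4).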

How the data were processed

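The authors deposited the scanner's uncorrected intensity values, a median per spot and a median for the background around it. The authors' series table, deposited as log2 ratios of Cy5 over Cy3 after background subtraction, loess and quantile normalization, served as an alternative, and its columns followed plain subtraction of the intensities (r = 0.9997 to 0.9999). Intensities of 45220 spots were corrected with normexp (offset 50) and normalized by loess within and quantiles between arrays (limma 3.58.1, R 4.3.3). Control spots and the 12 to 30 spots per array that the authors had excluded were left out, which removed no spot of the members. A reading was above background where it exceeded the mean + 2 SD of 757 negative and dark spots, which held for 56.6% to 79.1% of probes.

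Arrays at the same slide position were taken as a follicle pair. Over probes of mean log2 intensity of at least 8, their log2 ratios correlated at r = 0.74 to 0.88, and those of other positions at -0.46 to 0.06. Their deviations from the slide means correlated at r = 0.87 to 0.94, and those of other positions at -0.47 to -0.14. The deviations on a slide sum to 0, which by itself lowers the r of other positions. The dye-swap arrays were averaged, and the 4 pairs were fitted against 0 with lmFit and eBayes over all probes, with Benjamini-Hochberg adjustment. The study's cut-off used the unadjusted p. Correlations were tested over the 40320 orders of 8 follicles in Python 3.11.15. The fits and the permutation test were also tested on simulated data. The number of follicles, 4 per stage, limits the precision, and p-values measure the spread between these follicles only. In 13 lists, a gene was represented by its brightest probe, and a summed level is the log2 of the sum of linear levels.

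The members and the lists were chosen with earlier results of these data known. Named were all members, the 5 most alike and 3 most opposite genes of each, and up to 4 genes per list, those at the cut-off and then those with the largest mean ratio. Other genes are named where they are a list's markers near background, belong to a count of 5 or fewer, or were chosen after their values were seen. Alternatives covered background correction, normalization, dye, slide, intensity filter, the replicate block, array independence and each pair left out. Of 43794 probes, 21790 had a symbol, 1524 of them after a synonym was replaced, and 22004 stayed unnamed. Arrays of atretic follicles were not analysed here.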

Additional observations from a re-analysis of the deposited data

How the results depend on the processing

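The log2 ratios of PMP22, EMP2 and EMP3 stayed within 1 SD of their pairs under every alternative run. For the settings that leave out pairs or fit the 8 arrays, this was fixed in advance. Leaving out 1 or 2 of the 4 pairs cannot move a mean by 1 SD, and the fits on 8 arrays return the same mean. Over pairs 1 and 4 alone the PMP22 ratio was 0.45. Leaving out each pair in turn gave 1.07 to 1.96 for PMP22, -1.15 to -0.35 for EMP2 and -0.14 to 0.10 for EMP3, the latter with no stable sign. With each pair left out in turn, the number of all probes at the cut-off ran from 338 to 1538, and that of the member probes from 0 to 2. With all pairs, 297 probes met the cut-off in the main fit, and 253 to 316 under the other background and normalization settings. In each of these PMP22 was the only member. With the dye-swap arrays kept apart and the pair number as a replicate block with a dye term, 673 probes and 2 members, PMP22 and EMP2, met the cut-off, and with 8 arrays taken as independent 714 and 2. On the slide with growing in Cy5 alone, the median of the growth arrest-specific list was 0.20 in place of -0.01. The correlation of PMP22 with EMP3 turned to -0.26 on Cy3 values alone and to -0.43 without the 2 follicles farthest from the median, and ran from -0.13 to 0.38 when pairs were left out. That of EMP2 with EMP3 turned to 0.11 on Cy3 values and ran from -0.28 to 0.22, and that of PMP22 with EMP2 from -0.76 to -0.15, with no adjusted p under 0.05 in any of them. Without plateau follicles 2 and 3, an alternative added after seeing the data like pairs 1 and 4 alone, the likeness to PMP22 turned to -0.00647 for STX12, -0.14 for ORAI2 and 0.57 for HEY2. The cause of these changes was not tested. The mean over several probes of a gene was not run, since each member has 1 probe. Signal over background limits EMP3 and the growing follicles for PMP22.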

Other observations

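The genes next to the members on the chromosomes, in the order of the RefSeq annotation of the assembly ARS-UCD2.0, had their own values in these follicles and were not chosen for them. HS3ST3B1 and TEKT3, the nearest neighbours of PMP22 on its sides, had log2 ratios of -0.05 ± 0.05 and 0.05 ± 0.13 (SD, n = 4 pairs), the latter on a probe above the negative spots in 1 of 16 readings. COX10, which acts in haem synthesis for cytochrome oxidase and lies beyond HS3ST3B1, had -0.03 ± 0.98 (SD, n = 4), with 10.6 in plateau follicle 2 and 11.2 in plateau follicle 3. TVP23C, on the other side, had -0.09 ± 0.39 (SD, n = 4), with 10.0 and 9.90 in these follicles and 10.2 to 10.6 in the other 6. NUBP1 near EMP2 had -0.19 ± 0.47 (SD, n = 4), and SYNGR4, next to EMP3, had 0.45 ± 0.66 (SD, n = 4), highest in plateau follicle 2, at 9.74.

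The remaining marker lists held 0 genes at the cut-off. The 4 theca markers were all below 0, with a median of -0.21, but all above 0 over pairs 1 and 4 alone, with a median of 0.30. Their summed level was lowest in plateau follicle 3, at 10.8, and highest in plateau follicle 2, at 12.4, close to 12.3 in growing follicle 2. PTCH1 gave most of this sum, with 12.02 in plateau follicle 2 and 9.49 in plateau follicle 3. The other theca markers peaked elsewhere, CYP17A1 in growing follicle 2, at 9.26, INSL3 in growing follicle 3, at 9.85, and NR2F2 in plateau follicle 4, at 9.23. In plateau follicle 2, CYP17A1 was at 8.01 and INSL3 at 8.34. The 8 endothelial markers had a median of 0.05, the 5 red blood cell markers 0.16, the 6 surface epithelium markers 0.00 and the 5 oocyte markers -0.03. KRT19, a keratin of surface epithelium, was at 9.28 in plateau follicle 3, the follicle with the highest PMP22 level, and at 7.31 to 8.17 in the others. The endothelial receptor KDR was 10.5, 11.3, 7.52 and 7.50 in growing and 7.62, 9.01, 8.82 and 6.996 in plateau follicles. It was highest in growing follicles 2 and 1, followed by plateau follicles 2 and 3. Of the 8 endothelial markers 3, CLDN5, ESAM and EMCN, were highest in plateau follicle 3, CLDN5 at 10.5 against 8.38 to 9.33 in the others. For 0 of the 8 were plateau follicles 2 and 3 the 2 highest.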
